A study of Mus musculus with 12 samples.

Results

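Chromatin accessibility was compared between diabetic and healthy cells of the first phase of a study of bone marrow derived macrophages in mice with type 1 diabetes. The comparison holds 4 ATAC-seq libraries of the 12 in the series: 2 labelled first phase diabetic and 2 labelled first phase healthy, chosen by these labels alone. All mice were male C57BL/6J of 8 weeks at the start; the labels name no transgene. The diabetic mice were injected with streptozotocin, a toxin that destroys insulin-producing beta cells, at 42 to 45 mg/kg once a day for 5 days after a fast of 12 h. They counted as diabetic above 16.9 mmol/L blood glucose and marrow was taken after 6 weeks of hyperglycaemia; the healthy mice served as controls. Marrow progenitors of both kinds were then grown for 7 days with M-CSF in medium with 5 mmol/L glucose (rest phase) and stimulated for 16 h with LPS at 100 ng/mL together with 10 ng/mL of IFN-γ (second phase). The labels do not say at which step the first-phase cells were collected. Whether libraries of the same group stem from different mice is not said either, so p-values measure only the spread between these libraries, which may be technical.

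ATAC-seq cuts DNA with a transposase wherever it is free of nucleosomes, so promoters and active enhancers give peaks of reads. Monocytes and macrophages can keep a chromatin memory of past stimuli, called trained immunity, and high glucose is a stimulus for which such memory has been described in marrow progenitors. Chromatin opened at an enhancer or promoter during the first exposure is thought to ease the response to the next. M-CSF drives marrow progenitors to become macrophages, while neutrophils, B cells and red cell precursors are the other abundant cells of marrow. In bulk libraries, fewer cells of a type and less accessible chromatin per cell cannot be told apart.

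The deposited first-phase table gives, for 139999 peaks, the log2 mean of scaled reads of either group. Its header does not say which mean belongs to diabetic and which to healthy cells, and this was not guessed from values or order. The group of the first mean column is called A and that of the second B, and every difference is A minus B. Whole reads of each library could be solved from the group means (139557 peaks in all 12 libraries), which gave libraries A1, A2, B1 and B2. They held 4181185, 4392655, 9062119 and 6123193 reads in peaks, with 9, 9, 20 and 17 reads in the median peak. A1 and A2 differed by little more than the noise of sampling: in peaks of at least 20 reads, their reads split with 1.13 times the variance of sampling. The same ratio was 6.97 for B1 and B2. Whether A1 and A2 are separate samples or 1 library split in 2 is not known; standard errors, orderings by group and the spread within A treat them as 2, and are too favourable if they are 1. In B2, 48.8% of the reads lay in core promoter peaks (within 1 kb of a start), against 57.8% to 59.1% in the other 3 libraries.

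The label of macrophages was first checked against start peaks of marker genes, the highest peak within 1 kb of each gene's start. First-phase libraries (n = 3, with A1 and A2 summed as 1 sample) were tested against the 4 rest-phase libraries with limma on jointly scaled reads. Over all peaks, 18.9% were called higher and 19.8% lower in the first phase at an adjusted p under 0.05. The neutrophil list went one way: 17 of 17 start peaks were higher in the first phase. So were 14 of 16 of the B cell list and 9 of 14 of the erythroid and megakaryocyte list, with 0 lower in each of these lists. Of 20 macrophage markers, 12 were lower and 3 higher (Spi1, Cebpb and Ctsd). The markers thus went against a pure macrophage label, and the samples are called first-phase libraries here. The lists were chosen with earlier results of these data known.

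S100a9, a calcium-binding protein that neutrophils hold in bulk, had start-peak levels on the log2 scale of 9.09, 9.12, 8.62 and 9.67 in A1, A2, B1 and B2. The 8 libraries of the later phases lay between 1.93 and 4.21. The first-minus-rest difference was 6.46 ± 0.39 (SE; adjusted p = 2.3e-07, limma). Cd79a, a chain of the B cell receptor complex, stood at 7.78, 7.82, 8.04 and 5.90 against 2.28 to 4.65 later. Its difference from the rest phase was 3.92 ± 0.54 (adjusted p = 6.4e-05, limma), and B2 was the lowest of the 4 libraries. Slc4a1, the anion exchanger of red cells, stood at 7.88, 8.07, 8.50 and 7.28 against 2.14 to 4.36. In the other direction, C1qc, a complement component made by macrophages, had 5.59, 4.75, 6.13 and 5.70 in the first phase and 7.69 to 8.69 later. Its difference from the rest phase was -3.01 ± 0.23 (adjusted p = 7.9e-07, limma). Cd14, the LPS co-receptor, had 6.27, 6.37, 5.78 and 6.90 against 8.18 and above later. Csf1r, the M-CSF receptor, was open in all phases, at 7.05 to 7.71 in the first and 7.40 to 9.67 later, and its difference from the rest phase did not pass (adjusted p = 0.067, limma).

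**Figure D1:**
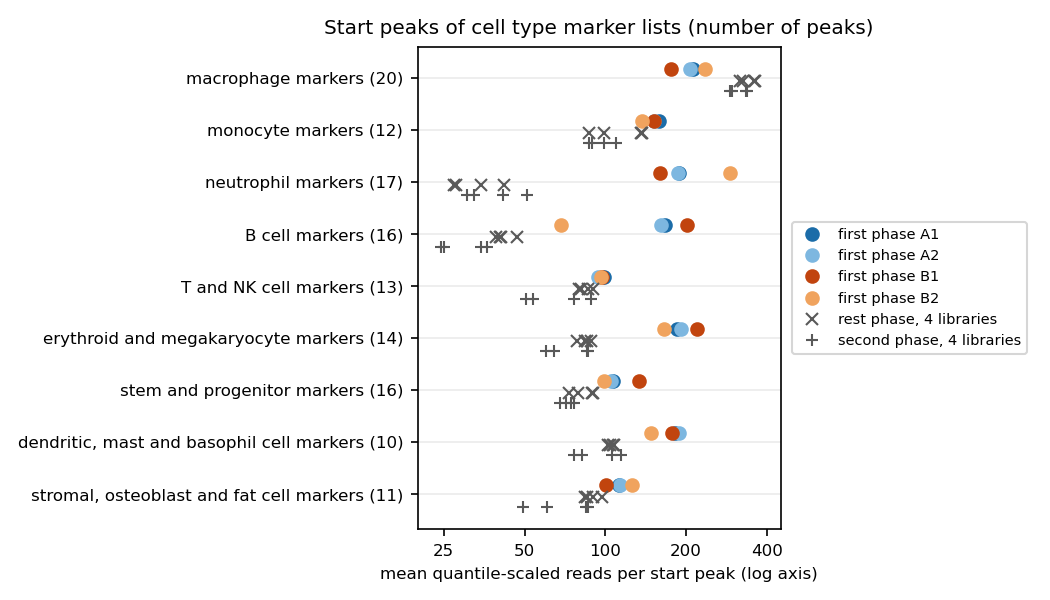
Mean quantile-scaled reads per start peak (log axis) for 9 cell type marker lists, 1 point per library; coloured points are the 4 first-phase libraries and grey marks the 8 later ones. Neutrophil markers lie at 159 to 290 in the first phase and at 27.3 to 50.9 later, B cell markers at 68.3 to 202 against 24.5 to 46.8, and macrophage markers at 176 to 234 against 290.5 to 360.

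The same lists set library B2 apart inside the first phase. The neutrophil list averaged 189 and 187 reads per start peak in A1 and A2, 159 in B1 and 290 in B2. The B cell list averaged 167 and 162 in A1 and A2, 202 in B1 and 68.3 in B2. B2 had the highest level of the 4 libraries at 16 of 17 neutrophil start peaks and the lowest at 15 of 16 B cell start peaks. No start peak of any of the 9 lists was at 0 reads in a first-phase library; the fewest were 3 reads. Cxcr2, a chemokine receptor of neutrophils, showed the pattern with 7.81, 7.74, 7.14 and 8.45. Rag1, the recombinase of lymphocyte precursors, showed the reverse with 6.27, 6.73, 7.16 and 3.76. In each case the 2 libraries of A lay between those of B. The promoters of a marker of either kind are printed below from RefSeq (build GRCm38.p6, 250 bases before to 50 after the start), since these regions carried the gap between B1 and B2. S100a8 (chr3:90668821-90669120, plus strand) has 50% GC and 1 match to a PU.1 motif (GAGGAAGT), in capitals, and Cd79a (chr7:24897247-24897546, plus strand) has 58.3% GC and no match to any of the 5 motifs searched.
S100a8 promoter: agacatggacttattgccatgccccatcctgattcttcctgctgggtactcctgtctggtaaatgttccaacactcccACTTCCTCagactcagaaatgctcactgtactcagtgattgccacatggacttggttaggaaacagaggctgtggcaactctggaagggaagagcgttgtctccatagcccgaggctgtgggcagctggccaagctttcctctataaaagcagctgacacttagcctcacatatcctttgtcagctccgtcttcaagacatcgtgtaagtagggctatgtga
Cd79a promoter: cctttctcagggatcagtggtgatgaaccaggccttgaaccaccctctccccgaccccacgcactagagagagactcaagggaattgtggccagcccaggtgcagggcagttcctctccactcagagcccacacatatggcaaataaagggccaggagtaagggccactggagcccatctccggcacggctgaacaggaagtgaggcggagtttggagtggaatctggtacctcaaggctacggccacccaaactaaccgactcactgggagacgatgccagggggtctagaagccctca

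No peak passed the test between the groups against the spread of the libraries. On log2 (quantile-scaled reads + 1), limma called 0 of 139557 peaks (percent called 0) at an adjusted p under 0.05, and the smallest adjusted p was 0.99. Without adjustment 5573 peaks, or 3.99%, had a p under 0.05. The design had little reach: the 95% interval of a difference extended 0.93 to either side in the median peak and 0.58 in strong peaks, those with a mean log2 level of at least 7 in the deposited table. The call rests on both B libraries. Without B1 limma called 6467 peaks (4293 with A higher) and without B2 it called 859 (649 with A higher), where the lone B library is assumed to vary as little as A1 and A2 do. Without A1, without A2, or with A1 and A2 summed as 1 sample, the count was 0. With A as 1 sample 3063 peaks had an unadjusted p under 0.05.

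The size of the spread showed in the 6 pairs of libraries. In the 10958 strong peaks with solved reads, the SD over peaks of the log2 difference was 0.169 between A1 and A2. It was 0.359 between B1 and either A library, and 0.564 and 0.570 between B2 and A1 or A2. The widest pair lay inside group B: B1 and B2 differed with an SD of 0.709. Past 2-fold were 1 peak between A1 and A2, 141 and 150 between A1 or A2 and B1, 877 and 889 between them and B2, and 1646 between B1 and B2. The mean of A fell between B1 and B2 in 55.1% of strong peaks and in 42.7% of all peaks.

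**Figure D2:**
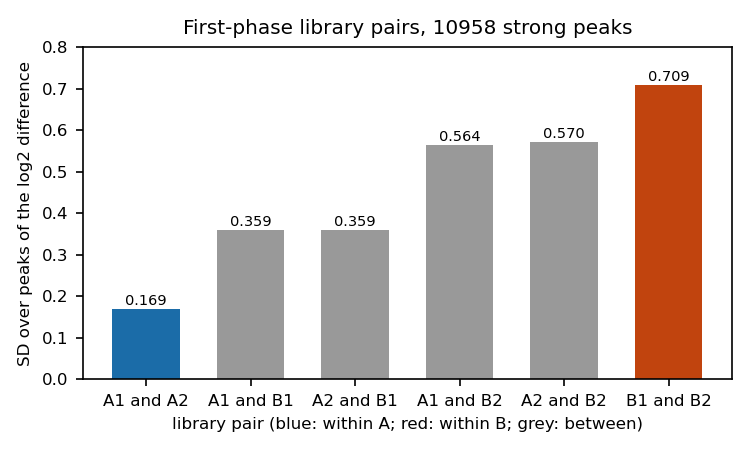
SD over 10958 strong peaks of the log2 difference for each pair of first-phase libraries; bars start at 0, blue is the pair within A, red the pair within B and grey the 4 pairs between groups. The pair within B (0.709) is wider than every pair between the groups (0.359 to 0.570).

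Peaks were then described by the difference of the deposited group means, centred on its median over all peaks (the uncentred median was 0.046). A centred value of 1 is a 2-fold difference. The middle 50% of peaks lay between -0.34 and 0.30. Past 2-fold were 2795 peaks with A higher (2.00%) and 6212 with B higher (4.44%), of which 1907 and 5791 lay below the median level. All 4 libraries were ordered by group, both A libraries above both B libraries, in 22291 peaks (16.0%), and the reverse held in 23139 (16.6%). The difference moved with the level of the peak. Its median was -0.95 among the 214 peaks with a level under 1, near 0 at levels of 4 to 5, and 0.30 at levels of 10 to 11. The A libraries were the shallower, at 9 reads in the median peak. A group mean was listed at 0 for 344 peaks in A and for 40 in B. Among the 214 peaks with a level under 1 the median of A was itself 0, so that end of the trend lay at the floor. Among 10959 strong peaks the median was 0.22, with 164 past 2-fold toward A and 0 toward B. On quantile-scaled reads, which give each library the same distribution, 3048 peaks had A higher and 2476 had B higher past 2-fold. On that scale the counts past 2-fold toward A and toward B were 4606 and 5994 without A1, 4621 and 6031 without A2, 10304 and 5859 without B1, and 6117 and 3942 without B2.

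By location, core promoter peaks had the highest median difference. It was 0.15 over 23358 peaks, against -0.05 in distal intergenic peaks, -0.03 in introns and -0.01 in the promoter flanks. On quantile-scaled reads it was 0.03, and it took opposite signs against the B libraries: -0.04 against B1 and 0.07 against B2. Without B2 it was -0.03, and without A1 or A2 it was 0.02. Over the 20 chromosomes with at least 500 peaks the median ran from -0.03 on chromosome 13 to 0.03 on chromosome 11.

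Among peaks at or above the median level whose libraries did not overlap, the largest differences toward A lay near Mir7216, Tapt1, Khdc1a, Mylip, St7, Man1a, Arid5b, Lcor, Chd3, Dthd1, Furin and Btg1, with centred differences of 1.81 to 2.22. Each peak is named for the nearest gene in the deposited annotation. Of the 12, the peaks of Tapt1, Lcor, Chd3 and Furin lay at a start; the others were intronic, exonic or intergenic. Tapt1 had log2 levels of 8.10 and 8.22 in A1 and A2 and 6.61 and 5.71 in B1 and B2. Its limma difference was 2.00 ± 0.34 (SE), with an unadjusted p of 0.00013 and an adjusted p near 1. Lcor, a corepressor of nuclear receptors, stood at 8.61, 8.78, 7.28 and 6.74. Furin, a protease that activates many precursor proteins, stood at 7.43, 7.72, 5.98 and 5.92. At these 3 promoters the libraries of A were close together and both B libraries lay at least 1 log2 unit below. Mylip, the ubiquitin ligase that degrades the LDL receptor, had an intronic peak (chr13:45401282-45401681, mm10) at 5.77, 5.39, 4.10 and 3.21. Arid5b, a DNA-binding cofactor, had an intronic peak at 4.67, 4.74, 3.36 and 2.34.

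Toward B the 12 largest lay near Hnrnpa3, Mdm1, Aplp2, Fcnb, Blm, Sh3pxd2b, Pde10a, AW209491, Lonp2, Zfp365, Cops9 and Tanc1, from -1.55 to -2.11. They were low peaks, with levels of 2.26 to 4.32 in the A libraries. An intergenic peak nearest Hnrnpa3 (chr2:75428066-75428465) had 2.89 and 3.17 in A and 4.86 and 5.03 in B, a limma difference of -1.92 ± 0.38. The peak of Fcnb, a lectin of neutrophils and their precursors, had 3.14, 3.99, 4.75 and 5.77. The start of Cops9, a COP9 signalosome subunit, had 3.69, 4.32, 5.15 and 6.01, and that of Lonp2, a peroxisomal protease, 3.14, 3.99, 4.66 and 5.61. In 11 of these 12 peaks B2 was the higher B library.

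**Figure D3:**
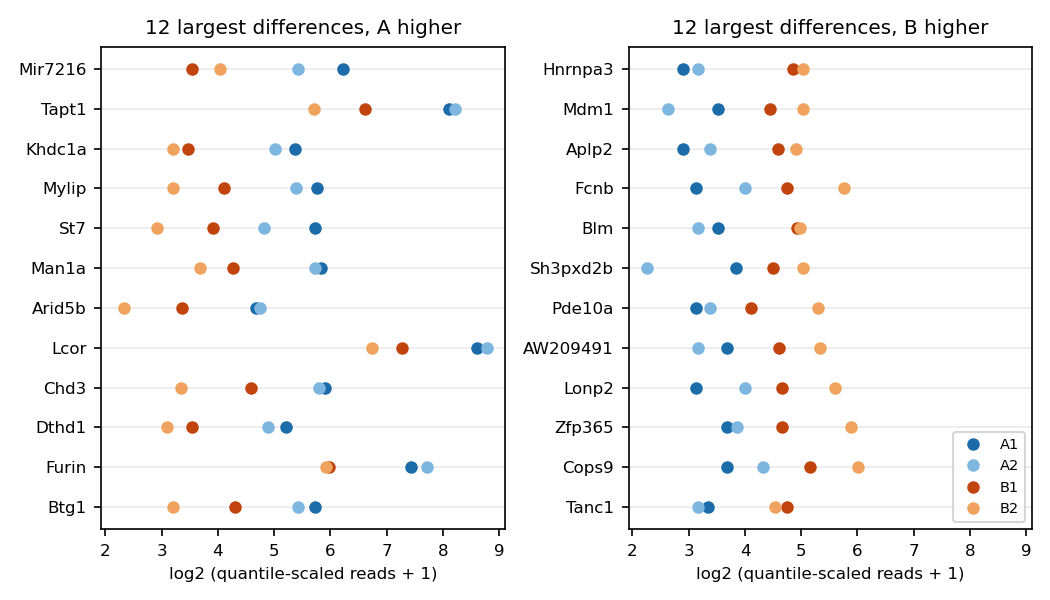
Log2 (quantile-scaled reads + 1) in A1, A2, B1 and B2 at the 12 peaks with the largest centred difference in each direction, 1 row per nearest gene. The peaks were chosen as not overlapping between groups, so the gap shows the choice; the A-higher set holds 3 promoters above 7 (Tapt1, Lcor, Furin) and the B-higher set none.

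Strong peaks past 2-fold toward A were mostly core promoters, and those with a promoter sequence had a higher median GC content than all strong peaks with one. Of the 164, 154 were core promoter peaks (93.9%, against 72.8% of all strong peaks). RefSeq gives a promoter sequence that overlaps 93 of them by at least 150 bases, with a median GC content of 77.3%, against 62.7% for the 5556 strong peaks with such a sequence. The highest 12, named after their values were seen, were the starts of Tapt1, Lcor, Furin, Zbtb46, Ugcg, Med13l, Kdm7a, Slk, Ube2r2, Ssbp3, Phc1 and Dpy19l1. Kdm7a, a demethylase of repressive histone marks, stood at 9.06, 9.21, 7.87 and 7.61. Ugcg, which makes glucosylceramide, stood at 8.27, 8.42, 7.22 and 6.34. Phc1, a Polycomb subunit, stood at 7.70, 7.72, 6.83 and 5.43. Zbtb46, a transcription factor of classical dendritic cells, stood at 7.87, 8.03, 6.92 and 5.43. B2 was below B1 at each of these 4 starts.

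No strong peak reached 2-fold toward B, and the largest differences were smaller. A peak 2 to 3 kb from the start of Tbrg4 had -0.92, with 6.61, 6.60, 7.13 and 8.34 in A1, A2, B1 and B2. An intergenic peak near Scd2, a desaturase that makes monounsaturated fatty acids, had -0.88, with 7.03, 7.02, 8.21 and 7.90. The start of Mt1, a metallothionein that binds zinc and copper, had -0.71, with 6.65, 6.62, 7.48 and 7.55; here B1 and B2 were alike. Its limma difference was -0.88 (95% interval -1.51 to -0.24), not called after adjustment.

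Promoters of 3 of these A-higher peaks and of Mt1 are printed from RefSeq (GRCm38.p6) to show their base composition side by side. Capitals mark matches to the GC box (GGGCGG, bound by Sp1-type factors) on either strand; a match that overlaps an earlier one is not marked. Kdm7a (chr6:39206724-39207023, minus strand) has 82.7% GC and 3 GC boxes, Ugcg (chr4:59189300-59189599, plus strand) 81.3% and 2, Lcor (chr19:41482432-41482731, plus strand) 81.0% and 5. Mt1 (chr8:94178839-94179138, plus strand), with B higher, has 60.7% and 3. H1f3, a linker histone gene with B higher, has 45.7% and no GC box and is not shown. Of the 300 bases, 128 of Lcor and 120 of H1f3 lie inside the peak, fewer than the 150 asked for above. The H1f3 peak lay 1 to 2 kb from an annotated start.
Kdm7a promoter: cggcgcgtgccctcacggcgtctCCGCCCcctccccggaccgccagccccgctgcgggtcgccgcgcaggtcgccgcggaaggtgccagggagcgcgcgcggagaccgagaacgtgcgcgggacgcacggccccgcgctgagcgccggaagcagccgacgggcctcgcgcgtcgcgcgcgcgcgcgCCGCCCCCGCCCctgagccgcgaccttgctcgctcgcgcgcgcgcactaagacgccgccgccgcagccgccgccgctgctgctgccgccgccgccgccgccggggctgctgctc
Ugcg promoter: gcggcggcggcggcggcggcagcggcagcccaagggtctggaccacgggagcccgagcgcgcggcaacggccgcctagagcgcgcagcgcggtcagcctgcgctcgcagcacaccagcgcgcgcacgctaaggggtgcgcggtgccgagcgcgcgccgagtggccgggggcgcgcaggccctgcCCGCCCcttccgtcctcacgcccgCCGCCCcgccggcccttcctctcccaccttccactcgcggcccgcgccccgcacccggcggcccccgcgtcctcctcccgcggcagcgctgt
Lcor promoter: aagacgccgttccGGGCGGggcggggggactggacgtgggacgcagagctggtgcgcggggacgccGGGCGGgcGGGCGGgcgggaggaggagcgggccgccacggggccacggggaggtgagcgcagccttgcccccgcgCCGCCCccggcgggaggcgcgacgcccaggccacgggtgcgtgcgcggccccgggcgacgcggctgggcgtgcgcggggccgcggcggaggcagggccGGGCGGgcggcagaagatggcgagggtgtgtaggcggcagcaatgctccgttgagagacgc
Mt1 promoter: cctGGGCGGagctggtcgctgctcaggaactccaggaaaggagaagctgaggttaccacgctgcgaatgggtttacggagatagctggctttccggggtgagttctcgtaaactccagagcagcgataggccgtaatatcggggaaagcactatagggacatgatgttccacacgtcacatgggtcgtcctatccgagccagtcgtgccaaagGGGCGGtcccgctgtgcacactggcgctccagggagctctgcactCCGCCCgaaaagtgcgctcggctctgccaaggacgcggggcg

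Sorted by GC content, strong promoter peaks showed a gradient between groups and also between B1 and B2. On quantile-scaled reads, the median difference of A below 50% GC (279 peaks) was -0.11 against B1 and -0.08 against B2. At 50 to 60% (1670 peaks) it was -0.12 and -0.01, and at 60 to 70% (2539 peaks) -0.08 and 0.11. At 70% or more (1068 peaks) it was 0.10 against B1 and 0.46 against B2. Both A libraries lay above both B libraries in 52.8% of this last class and below them in 3.28%, beside 16.0% and 16.6% over all peaks. Below 50% GC the shares were 8.60% and 24.7%. A1 and A2 did not follow GC, with class medians of -0.02 to 0.00 (A1 minus A2). Inside group B, the median of B1 minus B2 rose with GC, at -0.02, 0.14, 0.20 and 0.32 from the lowest to the highest class. The deposited difference of the class at 70% or more exceeded that of the class below 50% by 0.33, and on quantile-scaled reads the gap was 0.37 with all libraries, 0.53 without B1 and 0.22 without B2. By the deposited means the median difference was above 0 in each class, at 0.13, 0.16, 0.24 and 0.46 from low to high GC. The sign below 0 at low GC was thus seen only on quantile-scaled reads. The median deposited level of the 4 classes, from low to high GC, was 7.81, 8.27, 8.72 and 8.66.

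As a description over these 5556 peaks, Pearson's r with GC content was 0.50 for the deposited difference. On quantile-scaled reads it was 0.29 for A against B1, 0.44 for A against B2 and -0.02 for A1 against A2. These comparisons share the A libraries. B1 against B2, inside 1 group, had an r of 0.25, the highest of the 6 within-group pairs of the series (-0.04 to 0.25). The 5556 peaks were chosen by their level in the first phase alone. Compared in a like way over the phases, A minus B had an r of 0.49 in the first phase, 0.05 at rest and 0.25 after stimulation. A is again the first mean column and B the second. The columns of the later phases are not tied to a group either, so their sign need not refer to the same contrast as in the first phase. The promoter table covers 37.4% of core promoter peaks, under the 80% needed to speak for all of them, so as a check of core promoters as a class this is void and it describes only the peaks with a sequence. At 70% GC or more the median levels were 8.47, 8.51, 8.34 and 8.02 in A1, A2, B1 and B2. Between the groups the shallower A libraries were thus higher there, while inside B the deeper library, B1, was higher. Depth and group moved together, and the part of depth, base composition and group in the gradient was not tested.

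**Figure D4:**
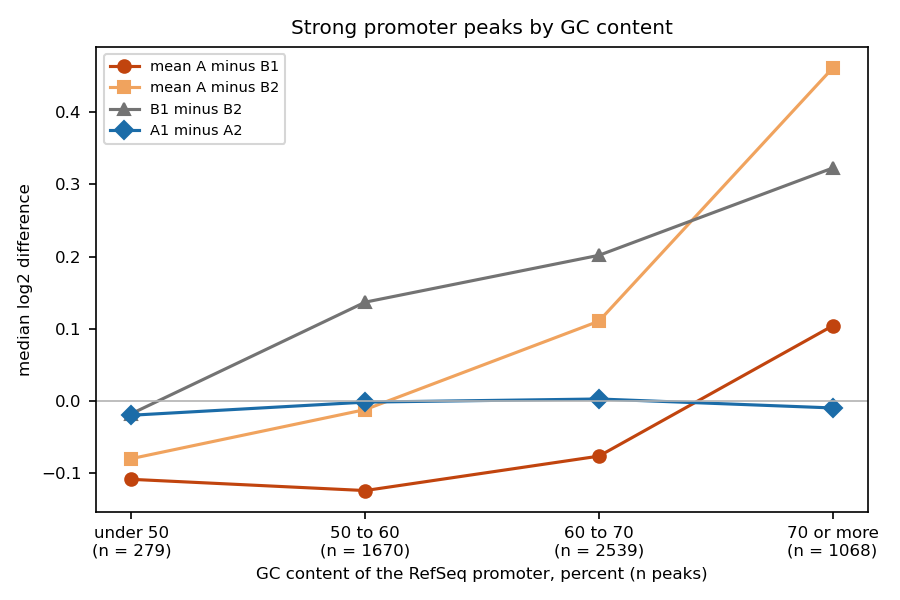
Median log2 difference, on quantile-scaled reads, of strong promoter peaks (y axis) by GC content of the overlapping RefSeq promoter (x axis, 4 classes). Shown are the mean of A against B1 and against B2, B1 against B2 and A1 against A2. At 70% GC or more A lies 0.10 above B1 and 0.46 above B2, and B1 lies 0.32 above B2, while A1 minus A2 stays within 0.02 of 0.

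A GC box was found in 74.5% of the 5556 promoters and in 35.7% of all 32851 promoters in the table, which have the same length. On quantile-scaled reads, peaks with it (median GC content 64.7%) had a median A-minus-B2 difference of 0.17, and those without it (57.0%) -0.0049. Against B1 the values were -0.05 and -0.11. The PU.1 motif, read by a master factor of myeloid and B cells, was found in 3.38% (3.20% of all promoters). With it the medians were -0.02 against B1 and -0.05 against B2, and without it -0.07 and 0.13. An ETS motif (CCGGAAGT) was found in 11.0% (3.89% of all), a CCAAT box in 43.7% (37.4%) and an AP-1 motif (TGANTCA) in 3.96% (7.81%), each searched on both strands; the PU.1 and ETS strings share the letters GGAAGT. A match is a run of letters and does not show that a factor was bound.

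Acsl1, which activates long-chain fatty acids to acyl-CoA and gives the series its title, had 23 peaks. Its start peak (chr8:46470652-46471051, mm10) was among the open promoters of the genome, at 9.91 and 9.91 in A and 9.84 and 9.70 in B, from 708, 761, 1469 and 720 reads. Both A libraries were above both B libraries, yet the limma difference, on quantile-scaled reads, was 0.14 ± 0.11 (95% interval -0.09 to 0.38). By the deposited means its centred difference was 0.43, beside a median of 0.22 over all strong peaks. The 23 peaks had centred differences of -0.61 to 0.44; 0 of 23 passed 2-fold, beside 6.43% of all peaks, and the libraries were ordered by group in 2 peaks toward A and 2 toward B, beside 16.0% and 16.6% of all peaks. The second highest Acsl1 peak, 2 to 3 kb from an annotated start, had 7.25, 7.20, 7.06 and 8.15, so B2 alone stood apart there. The promoter (chr8:46470787-46471086, plus strand) has 74.0% GC and 6 GC boxes, in capitals.
Acsl1 promoter: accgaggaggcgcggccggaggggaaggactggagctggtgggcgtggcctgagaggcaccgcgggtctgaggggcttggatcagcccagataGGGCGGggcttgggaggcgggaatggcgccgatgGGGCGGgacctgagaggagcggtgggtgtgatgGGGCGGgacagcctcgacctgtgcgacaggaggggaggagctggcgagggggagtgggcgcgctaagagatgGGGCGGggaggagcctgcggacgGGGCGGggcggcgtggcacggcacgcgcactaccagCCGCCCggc

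The medians of the 5 lipid lists lay below that of all peaks of like level. Acyl-CoA synthetases and fatty acid uptake (21 genes, 207 peaks) had a median difference of 0.04 in peaks at or above the median level, where all peaks have 0.08. Fatty acid synthesis and desaturation had 0.03, triglyceride storage and lipolysis 0.06, fatty acid oxidation 0.06 and cholesterol synthesis and efflux -0.0035. On quantile-scaled reads, centred alike, these medians were -0.01, -0.03, -0.04, -0.07 and -0.11. Limma called 0 peaks in each list. At the starts of Acsl3 and Acsl4 the groups overlapped, with 8.36, 8.28, 8.70 and 8.22 for Acsl3 and 8.13, 7.97, 8.01 and 7.79 for Acsl4. Acaca, the rate-limiting enzyme of fatty acid synthesis, had the widest gap among the 4 highest start peaks of its list, at 9.28, 9.26, 8.89 and 8.65. Its limma difference was 0.50 ± 0.15, unadjusted p = 0.0080. The starts of Acly (9.10, 9.07, 9.26 and 9.15) and Hsd17b12 (9.71, 9.79, 9.87 and 9.90) were ordered toward B on this scale, while their centred deposited differences were above 0 (0.15 and 0.17). Near Elovl5, a fatty acid elongase, an intergenic peak had 3.97 and 3.99 in A and 4.89 and 5.36 in B. In the synthesis list 45 of 175 peaks (25.7%) were ordered toward B and 23 (13.1%) toward A, against 16.6% and 16.0% of all peaks. In the list of acyl-CoA synthetases and uptake the order was the other way, with 24 of 206 (11.7%) toward B and 36 (17.5%) toward A. Ppard, a nuclear receptor for fatty acids, had 8.75, 8.81, 8.18 and 8.29 at its start.

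Classical inflammatory activation (25 genes, 294 peaks) had a median deposited difference of 0.29 in peaks at or above the median level, the highest of the 25 lists by that measure. On quantile-scaled reads it had 0.16, below the B cell list (0.51) and the T and NK cell list (0.23). Toward A 68 peaks were ordered (23.2%, against 16.0% of all) and toward B 34 (11.6%, against 16.6%). The mean level of the list, less that of all peaks, stood in A 0.33 above B1 but 0.02 below B2. At an intergenic peak of Il1b, the gene of interleukin 1 beta, the levels were 5.51, 5.24, 3.98 and 4.20; at the start of Rela, an NF-kB subunit, 8.00, 8.05, 7.59 and 7.46. The starts of Tnfaip3 and Ccl3, an NF-kB inhibitor and a chemokine, overlapped between groups (9.13, 9.09, 9.19 and 9.05; 8.63, 8.67, 8.12 and 8.72). The interferon list had a median of 0.19, or 0.06 on quantile-scaled reads. Of its 125 peaks 29 (23.2%) were ordered toward A and 10 (8%) toward B, against 16.0% and 16.6% of all peaks. Irf1 and Stat2, factors of the interferon response, overlapped between groups at their starts.

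In the glucose and stress lists the gap between B1 and B2 was wider than that between the group means. In glycolysis and glucose uptake the list mean stood 0.24 below the mean of the 4 libraries in B1 and 0.32 above it in B2, with both A libraries at -0.04. The neutrophil list moved the same way, at -0.38 in B1 and 0.54 in B2, and so did the macrophage list at -0.21 and 0.16; their part in the gaps of other lists was not tested. The start of Pkm, a pyruvate kinase, showed it with 9.77, 9.80, 9.62 and 10.19. Oxidative stress response had -0.18 in B1 and 0.12 in B2. In that list Gclm, a subunit of the enzyme that limits glutathione synthesis, was ordered toward A at 9.43, 9.65, 9.10 and 8.86, a limma difference of 0.57 ± 0.15 (unadjusted p = 0.0031). Insulin, IGF and FOXO signalling had a median of 0.04; its peak with the largest difference toward A was a start peak of Rictor, an mTORC2 subunit, at 7.19, 7.09, 6.48 and 5.71.

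Among chromatin enzymes linked to trained immunity (24 genes, 252 peaks), 8 peaks passed 2-fold toward A and 8 toward B (6.35% together, against 6.43% of all peaks), and limma called 0. The starts of Ep300 (9.38, 9.31, 8.98 and 9.08), an acetyltransferase, and of Kmt2a (9.13, 9.11, 9.01 and 8.67), a methyltransferase of H3K4, were ordered toward A. Crebbp, the paralog of Ep300, had a start peak at 6.71, 6.65, 5.81 and 4.85. In the list as a whole 44 peaks (17.6%) were ordered toward A and 35 (14.0%) toward B. The shares over all peaks were 16.0% and 16.6%. In the osteoclast list (353 peaks, median 0.13, 0.09 on quantile-scaled reads) Nfatc1, the master factor of osteoclasts, had 8.16, 8.08, 7.49 and 7.35 at its start, a limma difference of 0.70 ± 0.23. Tnfrsf11a, which encodes the receptor RANK, had a low start peak at 4.75, 4.82, 3.55 and 4.05. In the osteoclast list 70 peaks (19.8%) were ordered toward A and 60 (17.0%) toward B. Mmp9, a matrix protease also abundant in neutrophils, had 7.89, 7.78, 6.48 and 8.08, where B1 alone was low. Ccne1, cyclin E1, had the largest difference of the cell cycle list toward A, with 9.74, 9.77, 9.23 and 8.72. Cell cycle and ribosomal protein lists had medians of -0.02 and 0.15, and -0.13 and -0.04 on quantile-scaled reads.

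The widest gaps inside the first phase were those of the B cell and neutrophil lists. The B cell list stood at 0.24, 0.18, 0.41 and -0.83 in A1, A2, B1 and B2, as its mean level less that of all peaks and of the 4 libraries. The neutrophil list stood at -0.12, -0.04, -0.38 and 0.54, and the erythroid and megakaryocyte list at -0.07, 0.00, 0.27 and -0.21. Macrophage markers stood at 0.03, 0.02, -0.21 and 0.16. In the stem and progenitor list both B libraries lay above both A libraries (-0.07, -0.09, 0.07 and 0.09). Of its 281 peaks 75 (26.7%, against 16.6% of all) were ordered toward B and 31 (11.0%, against 16.0%) toward A. The stem cell factor receptor gene Kit had an intronic peak at 3.97, 3.86, 4.45 and 5.52. Runx1, a factor of blood formation, had 7.67, 8.09, 8.19 and 8.32 at its start. The 16 start peaks of this list, on reads scaled over all 12 libraries, did not keep that order. They averaged 107, 105, 133 and 98.7 reads in A1, A2, B1 and B2, so B2 was lowest. Of these start peaks 5 were ordered toward B and 0 toward A, and in 11 the mean of A lay between B1 and B2 or the groups overlapped.

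The macrophage list held the start of Cebpb, a myeloid transcription factor of the inflammatory response, the widest gap among the 4 highest start peaks of that list. It stood at 8.47 and 8.42 in A and 7.21 and 7.48 in B, a limma difference of 1.10 ± 0.23 (95% interval 0.59 to 1.61; unadjusted p = 0.000635, not called after adjustment). Spi1, which encodes PU.1, did not share it, at 8.80, 8.80, 8.28 and 9.54, nor did Cd68 at 8.74, 8.50, 8.49 and 9.33; in both B2 was highest and B1 lowest. On reads scaled over all 12 libraries, 4 of the 20 macrophage start peaks were ordered toward A (Cebpb, Csf1r, Adgre1 and Ctss). Toward B there were 3 (Cebpa, C1qc and Gpnmb). Over the 25 lists the mean of A lay between B1 and B2 in 14, above both in 7 and below both in 4. The gap between B1 and B2 was wider than that between the group means in 18. Between A1 and A2 the largest difference of a list was 0.10.

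**Figure D5:**
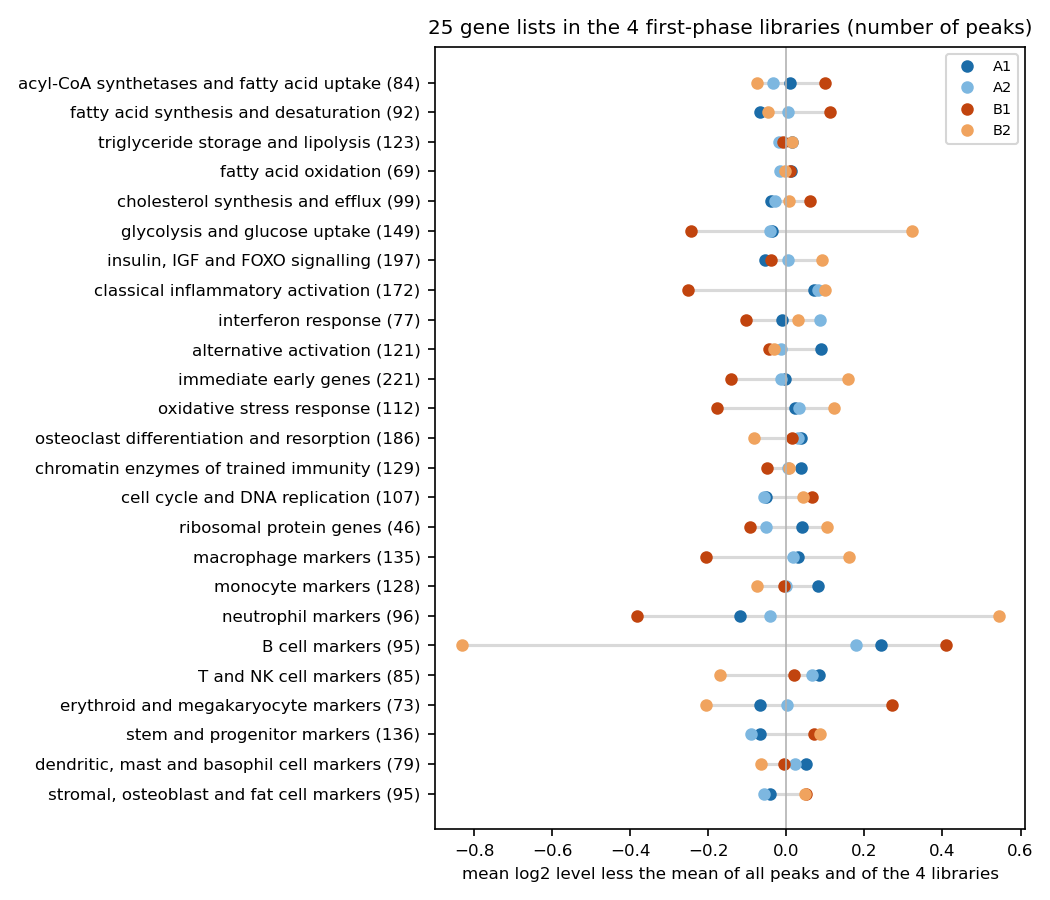
Mean log2 level of each of 25 gene lists in A1, A2, B1 and B2 (x axis), less the mean of all peaks in that library and the mean of the 4 libraries, over peaks at or above the median level. The largest difference between A1 and A2 in a list is 0.10, and in some lists a B library lies between them. The widest lines are B cell (B2 at -0.83), neutrophil (B2 at 0.54) and glycolysis (B2 at 0.32).

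Strong peaks with the widest gap between B1 and B2 were picked after their values were seen. Higher in B2 were peaks near S100a8 (7.69, 7.38, 6.08 and 8.40), Cxcr2 (7.66, 7.50, 6.84 and 8.86), Hp (7.32, 7.13, 6.30 and 8.18), Il1b, Prkch and Zc3h12a. Haptoglobin, the product of Hp, is stored by neutrophils as well as made in liver. Higher in B1 were peaks near Akap12 (6.74, 7.20, 7.89 and 3.21), Nfatc2 (6.69, 7.11, 8.22 and 4.34), Wdfy4, Tshz2 and Xrcc6. In each of these peaks except that of Il1b the 2 libraries of A lay between B1 and B2. The Il1b peak (7.49, 7.44, 5.47 and 7.29) had B2 close to A and B1 alone below.

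The most open peaks of the first phase were all core promoters. They were the starts of Sp1, Rab8a, Dnpep, Hdgfl2, Sf1, Mob3a, Rab40c, Osbp, Rnf44, BC005624, Fbrs and Cnot3, at 10.5 to 10.9 in every library. Sp1, a zinc finger factor that reads GC boxes, was the highest peak of all 4 libraries and stood at 10.89 in each. Quantile scaling gives the top-ranked peak of each library the same value, so this equality, and much of the likeness of the 12, is set by the scaling. The limma differences of the 12 ran from -0.08 to 0.13. Their centred deposited differences were all above 0, at 0.21 to 0.39, beside a median of 0.22 over all strong peaks.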

How the data were processed

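ATAC-seq libraries of mouse cells were analysed from 3 deposited tables of peaks, 1 for each phase, with coordinates in mm10. The authors' deposited group means are on a log2 scale. The submitters' processing notes name, with no role or order, DiffBind 3.14.0, DESeq2, HOMER 5.1, MACS2, Bowtie2 2.5.4, bedtools 2.28.0, Picard 3.2.0 and deepTools 3.2.1. Other settings were not given in the labels. The 9 columns of fold changes and p-values were not used. Each group mean is an average of whole reads times 1 factor per library, so the reads of the 2 libraries could be solved for every mean above 0; 442 peaks with a mean listed at 0 were left out. Solved libraries cannot be tied to replicate numbers. Reads in peaks per library, which set the precision, are given in the results. Group differences were taken from the deposited means, centred on their median, and tested with limma 3.58.1 (R 4.3.3) on log2 (quantile-scaled reads + 1) over all peaks with Benjamini-Hochberg adjustment and no block. Marker levels used reads scaled over all 12 libraries. The procedure was tested on simulated data.

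Named peaks were the 12 with the largest centred difference in each direction among those at or above the median level and not overlapping, the 12 most open, and in each of 25 gene lists the 4 highest start peaks and the largest difference in each direction. Strong peaks named by difference, and those named for the gap between B1 and B2, were chosen after their values were seen. The members and lists were chosen with earlier results of these data known. Alternatives were other scalings, centrings and filters, another number added before the log, all libraries in 1 fit, and each library left out.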

Additional observations from a re-analysis of the deposited data

How the results depend on the processing

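With 2 libraries a group, of which A1 and A2 had 9 reads in the median peak, small differences were not detectable. No paired analysis was possible because it is not known which solved library bears which replicate number. Between the first-phase groups limma called 0 peaks under every scaling, filter and joint fit tried (2148 to 6559 at an unadjusted p under 0.05), and from 0 to 6467 when 1 library was left out. Past 2-fold were 9007 peaks by the deposited means, 1309 of them at or above the median level, and 5524 by quantile-scaled reads. Values without 1 library are all on quantile-scaled reads and compare with the full value on that scale: against the 5524, the count was 10059 to 16163. Toward A there were 2795 by the deposited means (888 at or above the median level), 3048 on quantile-scaled reads and, against these, 4606 to 10304 without 1 library. Toward B there were 6212 (421 at or above the median level), 2476 on quantile-scaled reads and, against these, 3942 to 6031 without 1 library. The share toward A was 31.0%, and it was 40.2% without centring, 21.5% centred on peaks at or above the median level, 67.8% among those peaks and 55.2% on quantile-scaled reads. The median of core promoter peaks, 0.15, was 0.064 centred on peaks at or above the median level, 0.033 on quantile-scaled reads and, against that, -0.028 to 0.11 without 1 library. The gap between GC-rich and GC-poor promoters, 0.33, was 0.37 on quantile-scaled reads and, against that, 0.22 to 0.53 without 1 library. The cause of these moves was not tested. Calls between the first and rest phases numbered 54064 and 42574 to 56162 in the alternatives, which were chosen after seeing the data, as were those of the marker lists and of GC content. Of 223 named peaks 175 kept the sign of their centred difference on quantile-scaled reads, 211 on total reads and 167 to 173 without 1 library.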
